A study of Homo sapiens with 8 samples.

Results

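The mitochondrial ribosomal proteins were taken as all protein-coding genes whose symbol starts with MRPL or MRPS followed by a digit, with readthrough genes of hyphenated symbol left out. The rule found 78 genes among the 58051 genes of the count tables, 49 of them MRPL genes of the large subunit and 29 MRPS genes of the small subunit. They were followed in MDA-MB-231 (MDA231) cells, a human breast cancer line, by 3′ mRNA sequencing, in which each transcript gives a read near its 3′ end, so that read counts scaled to library size (CPM) need no correction for gene length. Parental cells (n = 2) were compared with SDHBKO cells (n = 3), in which a TALEN nuclease cut exon 1 of SDHB and cells were selected with hygromycin, and with SDHBKO SDHAlow cells (n = 3), which carry the same SDHB knockout and in addition an shRNA against SDHA under puromycin selection (SDHB KO + SDHA shRNA in the plots). No group was treated with a drug, and all were collected at 70% confluency. SDHA and SDHB are the catalytic subunits of respiratory complex II, and the study asked what a complex II remnant made without SDHB does, using the SDHA knockdown to lower that remnant. The paper's methods for RNA sequencing speak of biological replicates and name a single cell line for each group. Subline and genotype therefore cannot be told apart, and p-values measure the spread between samples of these lines.

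Mitochondrial ribosomes translate the few mRNAs of mitochondrial DNA, which code for core subunits of complexes I, III and IV and of ATP synthase. Their RNAs come from mitochondrial DNA, whereas all of their proteins are made from nuclear genes and imported. Part of these proteins have bacterial counterparts and the others are specific to mitochondria. Complex II, in contrast, is built from nuclear genes only.

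The libraries held 773042 to 1427141 reads assigned to genes. SDHA was measured at 74.0 and 91.6 CPM in parental cells, between 135 and 151 CPM in the 3 SDHBKO libraries and at 8.45, 12.7 and 17.8 CPM in SDHBKO SDHAlow cells, and the groups did not overlap (log2 fold change against SDHBKO -3.46 ± 0.28, SE). SDHB had 0 to 4 counts in every library, parental ones included, and the knockout label could not be checked on it. The share of reads mapped to several places was 14.5 to 16.1% in the SDHBKO libraries and 9.72 to 12.3% in the other 5, and its part in the results below was not tested. Reads of mitochondrial RNA were removed by the authors, so the products of mitochondrial DNA were not analysed here.

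Of the 78 genes, 68 (42 MRPL and 26 MRPS genes) passed a mean of 5 counts and were tested, with means from 5.63 to 654 counts and a median of 75.6. The 10 genes under this limit, MRPL13, MRPL19, MRPL32, MRPL38, MRPL39, MRPL50, MRPL53, MRPS24, MRPS28 and MRPS31, had at most 9 counts in any library, and no comparison of them was possible at this depth. MRPL53 had 0 counts in all 8 libraries. For 6 genes the last 300 bases of the transcript overlap another annotated gene on the same strand, and 5 of these 6 (MRPL19, MRPL38, MRPL53, MRPS24 and MRPS28) are among the untested genes, so their low counts do not show low expression. The exception was MRPL46. Of the 78 genes 36 have annotated pseudogenes, and all 79 of those pseudogenes were listed at 0 counts in every library.

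Expression was spread unevenly over the genes. The 10 highest genes held up to 48.1% of the counts of all 78 genes in each library. MRPS18B, a small subunit protein with MRPS18A and MRPS18C as paralogs, was measured at 555 and 685 CPM in parental cells, at 989, 711 and 801 CPM in SDHBKO cells and at 824, 609 and 704 CPM in SDHBKO SDHAlow cells. Its parental values lay below all 3 SDHBKO values and overlapped those of SDHBKO SDHAlow cells, and no comparison of it passed the test. MRPS18A, which sits in the large subunit despite its name, ranged from 162 to 255 CPM and MRPS18C from 20.1 to 56.0 CPM. MRPL12, the stalk protein that recruits translation factors and that was also found with the mitochondrial RNA polymerase, ranged from 427 to 1011 CPM, with the lowest and the highest value both in SDHBKO cells. MRPS34, a small subunit protein needed for its stability, stayed between 267 and 352 CPM in all libraries. MRPL58, a peptidyl-tRNA hydrolase built into the large subunit, ranged from 23.3 to 63.7 CPM, MRPS30 from 9.58 to 25.4 CPM and MRPS36 from 2.16 to 14.5 CPM, and none of these was called in any comparison.

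SDHBKO cells differ from parental cells by the loss of SDHB, and also by TALEN transfection and hygromycin selection, which cannot be told apart from it. MRPS26, MRPL23 and MRPL17 were higher in SDHBKO cells at an adjusted p below 0.1 (edgeR's quasi-likelihood test with Benjamini-Hochberg adjustment over all 7550 tested genes), and no mitoribosomal gene was lower. These are 3 of 68 tested genes, while 3.14% of all tested genes were called higher and 2.4% lower (5.54% in either direction), so the count is near the background. The median log2 fold change was 0.04 for the 68 genes and -0.00072 for all tested genes, and 51 of the 68 differed by less than 0.5 on the log2 scale.

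MRPS26, a small subunit protein with no bacterial counterpart, was measured at 98.3 and 96.9 CPM in parental cells, at 265, 186 and 222 CPM in SDHBKO cells and at 89.3, 105 and 101 CPM in SDHBKO SDHAlow cells. The 3 SDHBKO libraries were far above the other 5, which overlapped one another. The log2 fold change between SDHBKO and parental cells was 1.20 ± 0.24 (SE), with an adjusted p of 0.0124 by edgeR. Between SDHBKO SDHAlow and SDHBKO cells it was -1.18 ± 0.21, with an adjusted p of 0.00715. Both comparisons share the SDHBKO libraries. SDHBKO SDHAlow and parental cells, at 98.6 ± 8.30 (SD, n = 3) and 97.6 ± 1.01 CPM (SD, n = 2), differed by 0.02 ± 0.24 on the log2 scale.

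**Figure D1:**
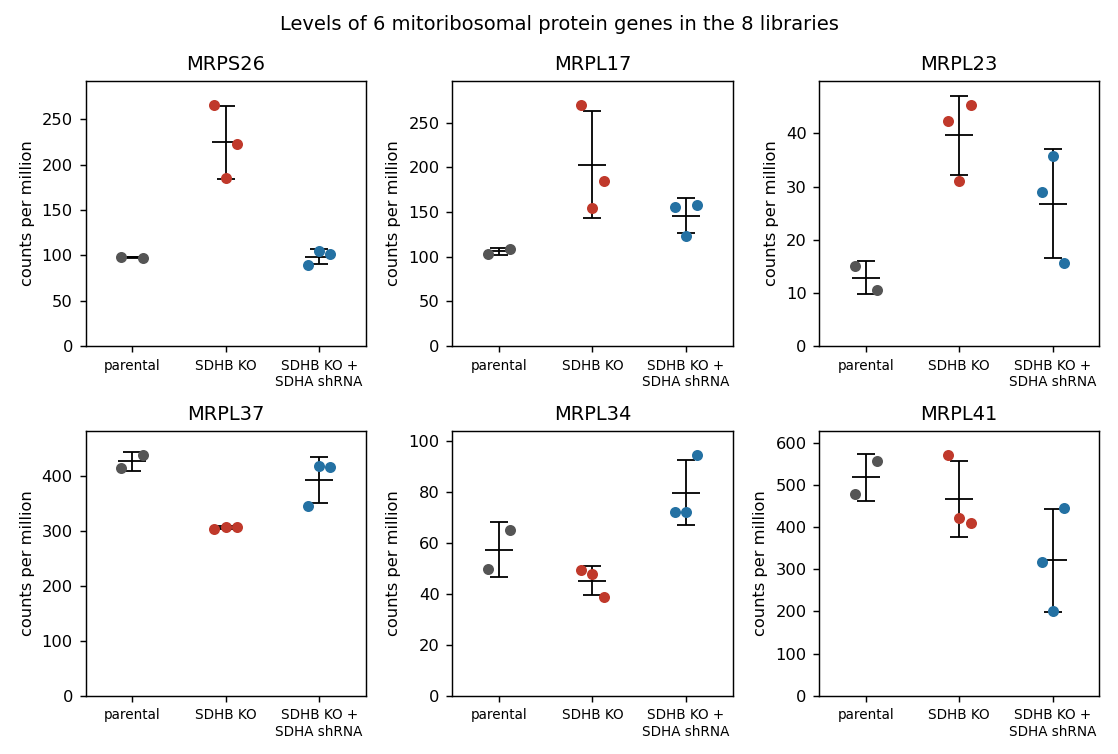
Levels of MRPS26, MRPL17, MRPL23, MRPL37, MRPL34 and MRPL41 in CPM (vertical axis, from 0) in parental, SDHBKO and SDHBKO SDHAlow cells; points are libraries and black bars the mean ± SD. MRPS26 stands at 186 to 265 CPM in SDHBKO cells and at 89.3 to 105 CPM in the 5 other libraries.

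MRPL17, a conserved protein at the rim of the exit tunnel for the nascent chain, was measured at 103 and 109 CPM in parental cells, at 270, 155 and 185 CPM in SDHBKO cells and at 156, 123 and 158 CPM in SDHBKO SDHAlow cells. Every parental value was below every other value, and the 2 knockout groups overlapped. The log2 fold change in SDHBKO cells was 0.93 ± 0.26 (SE, adjusted p = 0.0614 by edgeR). MRPL23, another conserved protein of the tunnel exit, was measured at 15.0 and 10.6 CPM in parental cells, at 42.4, 31.1 and 45.3 CPM in SDHBKO cells and at 29.0, 35.8 and 15.6 CPM in SDHBKO SDHAlow cells. The parental values were the lowest and the 2 knockout groups overlapped. It is a low gene, with 8 and 13 counts in the parental libraries, and its log2 fold change was 1.60 ± 0.44 (SE, adjusted p = 0.0582 by edgeR). Against parental cells the SDHBKO SDHAlow values were 0.46 ± 0.26 for MRPL17 and 1.07 ± 0.45 for MRPL23, and neither passed the test.

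These calls depended on single libraries. Without parental replicate 1 or without parental replicate 2, which leaves that group with 1 library assumed to vary like the others, the adjusted p in edgeR was 0.302 and 0.149 for MRPS26, 0.487 and 0.270 for MRPL17, and 0.410 and 0.323 for MRPL23. Without SDHBKO replicate 1 or replicate 3 only MRPS26 remained called, with 0.068 and 0.0439 in edgeR. MRPL17 stood at 0.232 and 0.113 and MRPL23 at 0.155 and 0.167. Calls over all tested genes fell too, from 237 higher and 181 lower to 43 and 34 without replicate 1 and to 97 and 51 without replicate 3. Without parental replicate 1, 0 of all tested genes were called in this comparison. DESeq2 called MRPS26 and MRPL17, beside 12.4% of all genes to which it gave an adjusted p, and it gave none to MRPL23.

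The promoters of MRPS26 and MRPL17 are shown because these genes were called and RefSeq promoter windows (GRCh38.p14, 250 bases before to 50 after the start) were at hand. Capitals mark matches, on either strand, to CCGGAAG (an ETS family motif), AAGATGGC (a YY1 motif) or the palindromic NRF1 motif. MRPS26 lies at chr20:3046052-3048250 (GRCh38, plus strand) and MRPL17 at chr11:6680385-6683340 (minus strand). The windows are chr20:3045802-3046101 and chr11:6683291-6683590.
MRPS26 promoter: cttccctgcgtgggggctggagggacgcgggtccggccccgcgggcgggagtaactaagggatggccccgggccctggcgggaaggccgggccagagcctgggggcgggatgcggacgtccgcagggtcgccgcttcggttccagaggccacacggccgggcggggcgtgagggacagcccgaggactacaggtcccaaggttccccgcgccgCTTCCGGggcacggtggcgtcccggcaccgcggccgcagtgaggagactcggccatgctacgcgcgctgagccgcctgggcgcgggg
MRPL17 promoter: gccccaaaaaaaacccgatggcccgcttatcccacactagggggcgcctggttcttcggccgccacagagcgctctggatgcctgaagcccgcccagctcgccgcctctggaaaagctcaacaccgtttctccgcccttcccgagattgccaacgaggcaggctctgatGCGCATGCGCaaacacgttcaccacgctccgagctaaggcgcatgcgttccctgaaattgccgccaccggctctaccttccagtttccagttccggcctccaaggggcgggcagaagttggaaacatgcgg
MRPS26 holds 1 ETS match, on the strand opposite to the gene, and MRPL17 holds 1 NRF1 match. Over the 69 mitoribosomal genes with a window, 29 (42.0%) held the ETS motif, 20 (29.0%) the YY1 motif and 8 (11.6%) the NRF1 motif. Among the 5969 protein-coding genes that were tested and had a window, the shares were 21.6%, 6.75% and 13.3%, and among all 15251 protein-coding windows 14.4%, 3.99% and 8.64%. The ETS and YY1 shares were higher in the mitoribosomal windows of both subunits (40.5 and 44.4% for ETS, 28.6 and 29.6% for YY1, MRPL first). The NRF1 share of all mitoribosomal windows lay between those of the tested and of all protein-coding windows. By subunit it was 14.3% for MRPL (6 windows), above both, and 7.41% for MRPS (2 windows), below both. A match describes the letters of the window and does not show binding.

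MRPS26 did not stand alone in its part of chromosome 20. Within 1 Mb on either side 20 other genes were tested, and all 20 were lower in SDHBKO SDHAlow than in SDHBKO cells by sign, 5 of them called, with a median log2 difference of -0.82. Within 25 Mb, 68 of 71 genes were lower and 18 were called lower, and the median was -0.78. The 163 genes of the chromosome that lie more than 30 Mb from MRPS26 had a median of 0.01. Between SDHBKO and parental cells 18 of the 20 nearest genes were higher by sign, 2 of them called, with a median of 0.30. Between SDHBKO SDHAlow and parental cells the median of these 20 genes was -0.37, beside 0.02 for MRPS26 itself.

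**Figure D2:**
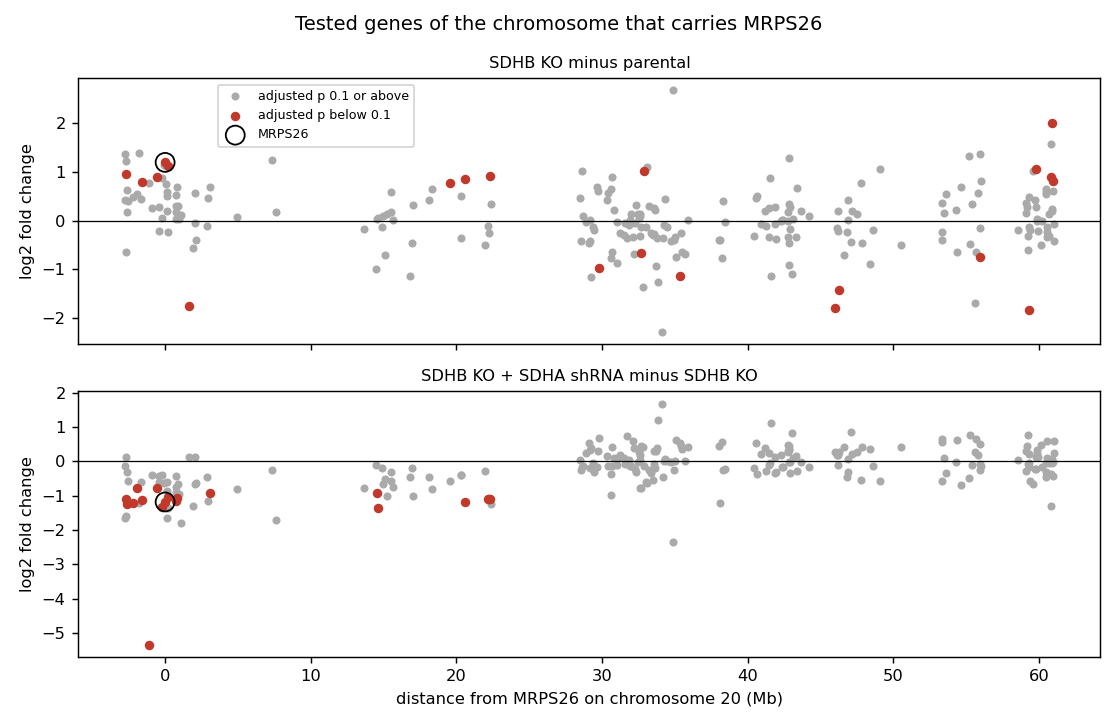
Log2 fold change (vertical axis) of every tested gene on the chromosome of MRPS26 against its distance from MRPS26 in Mb (horizontal axis), for SDHBKO minus parental (top) and SDHBKO SDHAlow minus SDHBKO (bottom); red points passed an adjusted p of 0.1 and the ring marks MRPS26. In the bottom panel 68 of the 71 genes within 25 Mb lie below 0, and the 163 genes beyond 30 Mb centre on 0.01.

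Relative to the mean log2 CPM of its 20 neighbours, MRPS26 stood at 0.50 and 0.27 in parental cells, at 1.5, 1.07 and 0.97 in SDHBKO cells and at 0.91, 0.70 and 0.93 in SDHBKO SDHAlow cells. On this scale the SDHBKO libraries were still the highest and the parental ones the lowest, with no overlap between groups, and SDHBKO SDHAlow cells lay nearer to SDHBKO cells than in the plain CPM values. The part of the regional difference in the MRPS26 result was not tested. MRPL51, on chromosome 12, showed the same layout in the SDHAlow comparison, with 20 of its 22 neighbours within 1 Mb lower. The neighbour median was -0.62 beside its own -0.51 ± 0.21. In SDHBKO against parental cells the median of these neighbours was 0.45, beside 0.41 ± 0.24 for MRPL51. MRPL17 and MRPL23 did not have such neighbours in SDHBKO cells, where the medians within 1 Mb were 0.06 and -0.26 over 10 genes each. Over the 52 mitoribosomal genes with at least 5 tested neighbours within 1 Mb, the neighbour median passed 0.5 in size for 1 gene in SDHBKO against parental cells (MRPL47, at -0.78) and for 2 genes in SDHBKO SDHAlow against SDHBKO cells (MRPS26 and MRPL51). Within 5, 10 or 25 Mb MRPS30 joined them as the third, with a neighbour median of -0.54 within 25 Mb beside its own 0.19. In SDHBKO SDHAlow against parental cells the median passed 0.5 for no gene within 1 or 25 Mb and for MRPS30 and MRPS35 within 5 and 10 Mb, at -1.09 and -0.57 within 5 Mb.

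Among the genes that did not pass in SDHBKO against parental cells, the smallest p-values belonged to MRPL37 and MRPL40 on the lower side and to MRPL21 on the higher side. MRPL37, a mitochondria-specific large subunit protein, was measured at 415 and 439 CPM in parental cells, at 304, 308 and 308 CPM in SDHBKO cells and at 345, 419 and 417 CPM in SDHBKO SDHAlow cells. Its SDHBKO values lay below all others, with a log2 fold change of -0.48 ± 0.20 (SE, adjusted p = 0.206 by edgeR). MRPL40, a protein of the central protuberance, had -0.57 ± 0.25 (adjusted p = 0.234 by edgeR). MRPL21, which has a bacterial counterpart, had 0.49 ± 0.22 (adjusted p = 0.254 by edgeR). MRPL30 at -1.40 ± 0.67 and MRPL47 at -1.30 ± 0.59 had larger estimates, at 2 to 15 counts in each of the parental and SDHBKO libraries. Parental and SDHBKO values did not overlap for 16 genes that were higher and 10 that were lower, of 68, while the shares over all tested genes were 19.3% and 18.6%.

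**Figure D3:**
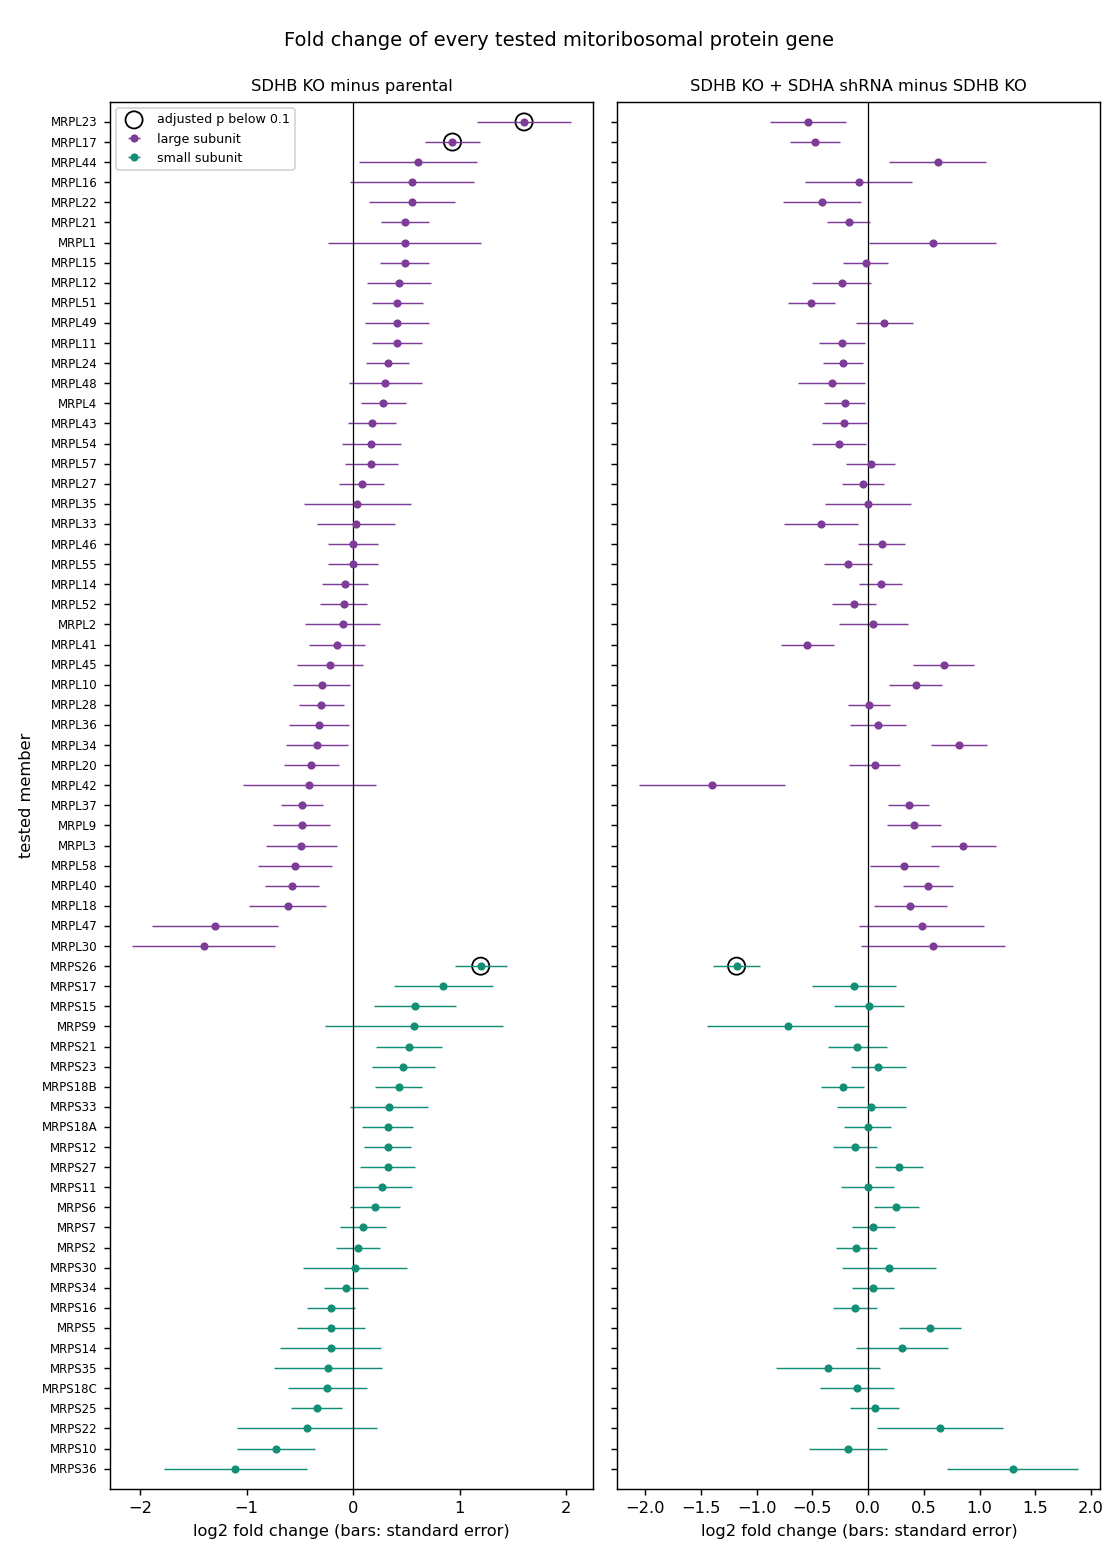
Log2 fold change ± SE (horizontal axis) of the 68 tested mitoribosomal genes (rows; large subunit purple, small subunit green) in SDHBKO minus parental (left) and SDHBKO SDHAlow minus SDHBKO (right); the panels share the SDHBKO libraries, so mirrored values are built in. Rings mark an adjusted p below 0.1, which 3 genes reached on the left and MRPS26 on the right.

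SDHBKO SDHAlow cells differ from SDHBKO cells by the SDHA knockdown, and also by shRNA transfection and puromycin selection. No empty-vector group was among the samples, so these cannot be told apart. MRPS26, whose tested neighbours within 1 Mb were also lower at a median of -0.82, was the mitoribosomal gene that fell. This is 1 of 68, beside 1.51% of all tested genes in either direction and 1.19% called lower. None rose, beside 0.318% of all tested genes. It was called under every alternative, with adjusted p-values up to 0.0541 in edgeR. MRPL34, the counterpart of a small bacterial large subunit protein, was measured at 49.3, 47.8 and 38.9 CPM in SDHBKO cells and at 72.4, 72.4 and 94.7 CPM in SDHBKO SDHAlow cells, with parental values of 49.7 and 65.0 CPM between the ranges of both groups. The knockout groups did not overlap, and the log2 fold change was 0.82 ± 0.25 (SE, adjusted p = 0.168 by edgeR); without SDHBKO SDHAlow replicate 2 it passed at 0.0801. MRPL3, which lies close to the catalytic centre, had 0.85 ± 0.29 (adjusted p = 0.215 by edgeR) and MRPL45, which holds the ribosome at the inner membrane, 0.68 ± 0.27 (adjusted p = 0.304 by edgeR). On the lower side MRPL42 had -1.40 ± 0.65, MRPL41 -0.55 ± 0.24 and MRPL51 -0.51 ± 0.21, none of which passed. The median of the 68 genes was 0.00, with 34 positive and 34 negative values, beside a median of 0.01 for all tested genes.

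SDHBKO SDHAlow cells against parental cells gave 0 called mitoribosomal genes in edgeR and 0 in DESeq2, while 0.914% of all tested genes were called in edgeR and 1.99% in DESeq2. At an unadjusted p below 0.05 there were 6 of 68, beside 12.3% of all tested genes. MRPL41, a mitochondria-specific large subunit protein, was measured at 479 and 558 CPM in parental cells, at 572, 421 and 410 CPM in SDHBKO cells and at 317, 201 and 446 CPM in SDHBKO SDHAlow cells. The last group lay below the parental one and varied more than it, and the log2 fold change was -0.69 ± 0.26 (SE, adjusted p = 0.263 by edgeR). Without SDHBKO SDHAlow replicate 3 it was -1.01 and passed at 0.0886. The other 5 were MRPL42 (-1.81 ± 0.69) and MRPS10 (-0.91 ± 0.37) on the lower side and MRPL23, MRPS27 (0.60 ± 0.25), which has pentatricopeptide repeats, and MRPL44 (1.23 ± 0.53), which resembles an RNase, on the higher side. MRPL42 rests on 1 to 6 counts in the SDHBKO SDHAlow libraries.

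The subunits were compared by their summed counts. Together the 78 genes took 0.916 to 1.04% of the counts of a library. The ratio of summed MRPL to summed MRPS counts was 1.87 and 1.79 in parental cells, 1.61, 1.60 and 1.72 in SDHBKO cells and 1.56, 1.69 and 1.70 in SDHBKO SDHAlow cells. Both parental libraries were above all 6 others. Against parental cells the small subunit sum moved more, by 544 CPM in SDHBKO and 308 CPM in SDHBKO SDHAlow cells beside 289 and -86.0 CPM for the large subunit sum, whereas between SDHBKO SDHAlow and SDHBKO cells the large subunit sum moved more, by -375 beside -236 CPM. MRPS genes took 0.320 and 0.340% of counts in parental cells and 0.341 to 0.383% in the other libraries, whereas MRPL genes took 0.571 to 0.659% in all groups. The mean log2 ratio was 0.87 ± 0.041 (SD, n = 2), 0.72 ± 0.059 (SD, n = 3) and 0.72 ± 0.066 (SD, n = 3), and these are given as a description because a few high genes make up the sums.

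Of the 544 CPM between SDHBKO and parental cells in the MRPS sum, MRPS18B made 214 and MRPS26 127. Without MRPS26 the ratio was 1.93 and 1.84 in parental cells and at most 1.82 elsewhere. Without MRPS18B it was 2.27 and 2.23 in parental cells and at most 2.15 elsewhere. Without both, a pair chosen for the size of their difference, it was 2.36 and 2.31 in parental cells, and SDHBKO cells, at 2.32, 2.15 and 2.32, overlapped them, whereas SDHBKO SDHAlow cells, between 2.07 and 2.21, stayed below both. With MRPS18A and MRPS30 counted in the large subunit, where their proteins sit, and MRPS36, a part of the 2-oxoglutarate dehydrogenase complex, left out, the mean ratios were 2.01, 1.81 and 1.84. Gene by gene, the median log2 fold change against parental cells was 0.01 for MRPL and 0.15 for MRPS genes in SDHBKO cells and 0.03 and 0.20 in SDHBKO SDHAlow cells. The interquartile range ran from -0.34 to 0.41 for MRPL and from -0.21 to 0.40 for MRPS genes in SDHBKO cells, so both distributions overlapped widely.

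**Figure D4:**
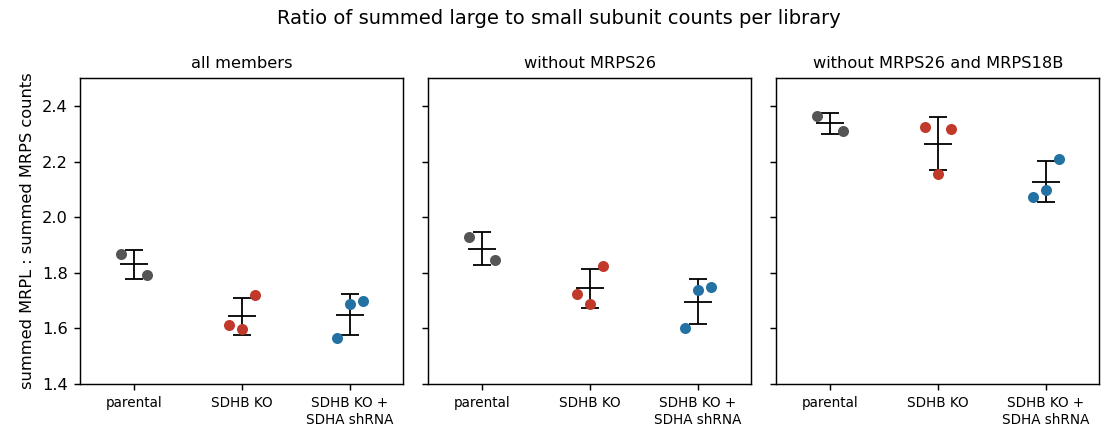
Ratio of summed MRPL to summed MRPS counts (vertical axis, not from 0) in each library, for all genes, without MRPS26, and without MRPS26 and MRPS18B; points are libraries and bars the mean ± SD. The parental libraries, at 1.87 and 1.79, lie above the 6 others in the left panel. In the right panel they overlap SDHBKO cells and still lie above SDHBKO SDHAlow cells, at 2.07 to 2.21.

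Functional groups within the large subunit were small. The 6 exit tunnel proteins (MRPL17, MRPL22, MRPL23, MRPL24, MRPL45 and MRPL47) had a median log2 fold change of 0.44 in SDHBKO against parental cells, with MRPL17 and MRPL23 called, beside 3.14% of all tested genes called higher. MRPL45 at -0.22 and MRPL47 at -1.30 were the 2 with negative values. The 3 stalk proteins (MRPL10, MRPL11 and MRPL12) had 0.41 and the 6 tested central protuberance proteins -0.27, and none of these 9 was called. Of the stalk proteins 2 had positive values and MRPL10 had -0.30 ± 0.27. MRPL12 had 0.43 ± 0.30, with 493, 427 and 1011 CPM in SDHBKO cells beside 438 and 516 CPM in parental cells. Genes listed with bacterial counterparts (41 tested) had a median of 0.05 with 2 called. All remaining genes, listed as mitochondria-specific (27 tested), had 0.01 with 1 called, beside 5.54% of all tested genes. This split placed MRPS18C in the first list and its paralogs MRPS18A and MRPS18B, and also MRPS36, in the second.

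Other genes of mitochondrial translation were read from lists of fixed content. None of the 5 mitoribosomal proteins with other symbols was called in any comparison. Over all tested genes, 5.54% were called in SDHBKO against parental cells. In SDHBKO SDHAlow cells 1.51% were called against SDHBKO and 0.914% against parental cells. PTCD3, a small subunit protein with pentatricopeptide repeats, was measured at 75.2 and 83.6 CPM in parental and at 36.9, 52.3 and 37.8 CPM in SDHBKO cells (log2 fold change -0.90 ± 0.31, adjusted p = 0.122 by edgeR). Of 30 genes for mitoribosome assembly and rRNA modification 24 were tested. Beside 3.14% of all tested genes called higher in SDHBKO than in parental cells, 1 of these 24 was called higher. This was FASTK, the founding member of a family of mitochondrial RNA-binding proteins, at 275 and 341 CPM in parental, 675, 558 and 637 CPM in SDHBKO and 415, 525 and 357 CPM in SDHBKO SDHAlow cells, with a log2 fold change of 1.02 ± 0.22 (adjusted p = 0.0202 by edgeR) that was lost without either parental library. None of 14 tested translation factors and none of 9 tested transcription factors and regulators was called in any comparison, beside the shares of all tested genes given above. The translation factors had a median of -0.17 in SDHBKO against parental cells, with 11 of 14 negative and an interquartile range from -0.54 to -0.06. Their median standard error was 0.54, beside 0.28 for the 68 mitoribosomal genes, so single estimates in this list are loose. TUFM, the elongation factor that brings tRNA to the ribosome, had -0.58 ± 0.21 in SDHBKO against parental cells (adjusted p = 0.134 by edgeR), and POLRMT, the mitochondrial RNA polymerase, -0.61 ± 0.24 (adjusted p = 0.183 by edgeR).

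Cytosolic ribosomal proteins and complex I subunits give the same view of a large complex elsewhere. Of 83 tested cytosolic ribosomal protein genes 5 were higher and 2 lower in SDHBKO than in parental cells (3.14% and 2.4% of all tested genes), with a median of 0.02. Of 35 tested complex I genes 3 were higher and 0 lower, with a median of 0.08. In SDHBKO SDHAlow against SDHBKO cells the medians were 0.08 and -0.10. There 1 cytosolic gene was lower and 1 complex I gene higher (1.19% and 0.318% of all tested genes). In SDHBKO SDHAlow against parental cells the medians were 0.03 and 0.13. Here 2 cytosolic genes and 1 complex I gene were lower, beside 0.914% of all tested genes called in either direction. The medians of the mitoribosomal genes lay in the same range, and no test of a difference between these lists was made.

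**Figure D5:**
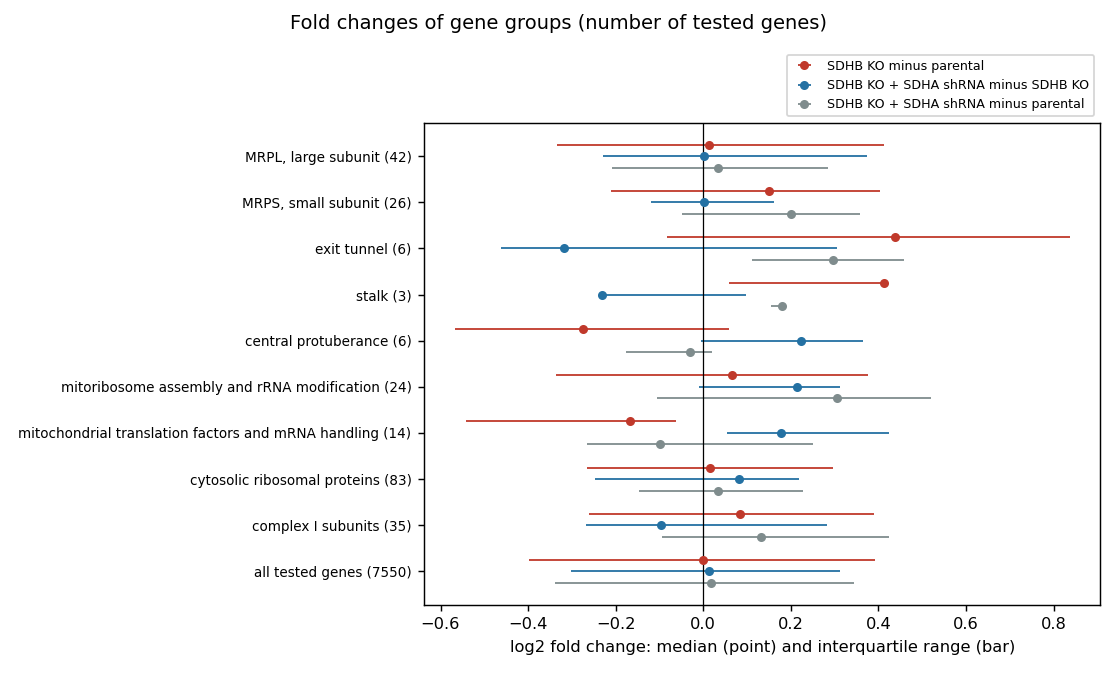
Median log2 fold change (points) and the interquartile range (bars, lower to upper quartile) for each gene group (rows, number of tested genes in parentheses) in the 3 comparisons. Medians of the MRPL and MRPS groups lie between 0.00 and 0.20, and their bars cross 0 in all comparisons. In SDHBKO minus parental the bar of the 14 translation factors, from -0.54 to -0.06, lies below 0. That of the 3 stalk proteins lies above 0, although MRPL10, 1 of the 3, had -0.30.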

How the data were processed

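RNA of MDA231 cells was made into QuantSeq 3′ libraries, and the authors ran Trimmomatic, sorted out reads from rRNA and mitochondrial transcripts, and mapped the remainder to GRCh38 using STAR 2.5.2b. The deposited counts per gene, whole numbers of uniquely mapped reads, were used for all results. The deposited normalized counts, a signal scaled by DESeq2 size factors by the authors, served only to match replicates, and for 2 files the replicate number differed from the raw file with the same values, so the raw numbering was kept. The strand setting of the counting is not given in the sources used here.

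Genes were named with a GENCODE annotation of GRCh38, and 7550 of 58051 genes with a mean of at least 5 counts were tested. The 8 libraries were fitted together with edgeR 4.0.16 in R 4.3.3 (TMM scaling, quasi-likelihood F test, 3 groups without covariates), at an adjusted p of 0.1. CPM are TMM scaled, and intervals of fold changes are standard errors. The fit was tested on simulated counts. Named genes were those called, in each comparison the 4 of smallest p in each direction, a short list chosen for their roles (MRPL12, MRPL44, MRPL58, MRPS18A, MRPS18B, MRPS18C, MRPS30, MRPS34, MRPS36) and the untested genes. The members and lists were chosen with earlier results of these data known, and the look at chromosomal neighbours and at the ratio without single genes was added after seeing the data. Alternatives were DESeq2 1.42.0, its size factors, other filters, only the groups compared, a replicate block, a threshold of 0.05 and leaving out each library.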

Additional observations from a re-analysis of the deposited data

How the results depend on the processing

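For named mitoribosomal genes 365 alternative values kept their direction and side of the threshold, 11 called values no longer passed, 2 values newly passed and 1 changed sign (MRPS26 in SDHBKO SDHAlow against parental cells, -0.0385 without SDHBKO SDHAlow replicate 2, within a leave-one-out range up to 0.0823). Leaving out single libraries, the number of mitoribosomal genes called ranged from 0 to 3 in SDHBKO against parental cells, from 1 to 2 in SDHBKO SDHAlow against SDHBKO cells and from 0 to 1 in SDHBKO SDHAlow against parental cells. At an adjusted p of 0.05 the first of these counts was 1. The calls over all tested genes moved as well. Without SDHBKO replicate 1 they were 43 higher and 34 lower, 5 and 34, and 5 and 27 in the 3 comparisons. Without SDHBKO SDHAlow replicate 2 they were 474 and 359, 106 and 256, and 67 and 105. In the same order the median log2 fold change ranged from -0.0726 to 0.0779, from -0.0805 to 0.0123 and from 0.0146 to 0.0846 for the large subunit, and from 0.0674 to 0.211, from -0.0829 to 0.0603 and from 0.0788 to 0.259 for the small subunit. The differences in the log2 ratio of summed large to small subunit counts, -0.16, 0.01 and -0.15, moved by less than the replicate SD in all 22 alternatives. The cause of these shifts was not tested.

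By the raw numbering, replicate numbers did not pair the samples (correlations of same-numbered deviations from -0.27 to 0.09, mean -0.07 over 7 pairs). The deposited normalized counts carry SDHBKO replicates 1 and 3 in swapped order, and that order was not tried. With a replicate block, 2 mitoribosomal genes (MRPL23 and MRPS26), 1 and 0 were called in the 3 comparisons. Over all tested genes the block gave 119 higher and 80 lower, 13 and 46, and 3 and 9.

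Depth limits the low genes, since 1 count is 0.701 to 1.29 CPM and 10 genes could not be tested. With 2 parental libraries, comparisons with that group rest on few samples.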
